A study of Rattus norvegicus with 15 samples.

Results

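Tumours of rats raised on either zinc extreme, too little or too much, were set against tumours of rats raised on adequate zinc, to ask which genes differed in the same direction after both altered diets. All 15 tumours of the series entered: 10 altered-diet tumours, 5 from zinc-deficient and 5 from zinc-supplemented rats with equal weight for each diet, against 5 control tumours. Membership follows the diet label alone, and the labels' "negative control" was read as the adequate chow. All were tubular or papillary mammary tumours of female Sprague-Dawley rats, taken at 180 days of age. The chow held 3 mg of zinc per kg for the deficient, 35 mg/kg for the control and 180 mg/kg for the supplemented animals. Dams (16 per group) ate it from gestation day 10 until weaning on day 21, and their daughters until day 51. On that day all animals, controls included, received 50 mg/kg of DMBA (7,12-dimethylbenz[a]anthracene), a carcinogen that gives rats mammary tumours, by gavage, and all ate adequate chow from then on. The comparison is thus between early-life diets in tumours of animals that had returned to the same chow, and none of the animals went without the carcinogen. One free-text label names mammary gland at day 21 instead of a tumour; the tissue and age labels were followed. The labels do not say whether each tumour came from its own animal or litter, and p-values here compare these tumours with their own spread, which may be technical in part.

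Zinc is a structural or catalytic part of many proteins, among them zinc-finger transcription factors and matrix metalloproteinases. Cells keep free zinc low with metallothioneins, small cysteine-rich proteins that bind it, with ZnT transporters (Slc30a genes) that move it out of the cytosol and with ZIP transporters (Slc39a genes) that bring it in. The transcription factor Mtf1 senses zinc and drives metallothionein genes and Slc30a1 through metal response elements in their promoters. In the mammary gland, transporters of both families also carry zinc into milk.

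The luminal epithelial genes Krt8, Krt18, Krt19, Epcam and Cdh1 were well above background in 15 of 15 tumours. The arrays differed in brightness. Their 75th percentile of signal lay between 55.9 and 171 (median 164) for controls and between 50.7 and 177 (median 112) for altered diets. They lay on 4 slides, each with all 3 diets. Control replicates 1, 2 and 3 were the only controls on slides 1, 2 and 3, and control replicates 4 and 5 lay on slide 4. A value within most slides thus rests on a single control. Genes given below with values within the slides were mostly chosen for a small p in these same tumours. A sign shared by the slides is thus no support. A level below is the log2 signal minus this percentile of the array, and a difference is the mean of both altered diets minus the control mean, in log2 units. Of 21011 probes tested, 10710 had a symbol, for 8378 genes. In bulk tumour RNA, fewer cells of a type and less RNA per cell cannot be told apart.

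No gene passed the test for a difference shared by both altered diets. Limma called 0 of 21011 probes (0% called), and the lowest adjusted p was 0.748. At an unadjusted p under 0.05 it found 353 probes, where 1051 are due by chance if no probe differs; 171 of them were higher after altered diets (0.814% of those tested) and 182 lower (0.866%). At the median, a probe had a 95% interval of 0.44 to each side, a factor of 1.36. In simulated data of this design, 200 of 20971 probes were changed, by 2-fold and by 4-fold in equal numbers. Of these, 52% of 2-fold and 93.8% of 4-fold differences were recovered. The adjusted threshold is looser where many probes change, so these shares do not hold for a change limited to few probes. Over all genes 45.9% had a higher mean after altered diets, and the median difference was -0.02. Differences of 2-fold or more were measured for 21 genes in the higher and 14 in the lower direction. Each of the 37 genes described here by rule had an adjusted p of 1 in limma, so their values are a description of these 15 tumours. The differences given for the single diets share the 5 control tumours. Normexp background correction adds an offset of 50 to each signal and so draws dim genes together. It gave a difference more than 1.5 times smaller for 23 of the 37 genes, and the authors' deposited values did so for 22. Both kept the direction of all 37, which is no support, since most of these genes were chosen for a small p in the same arrays.

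The control tumours did not stand apart over all tested probes either. The mean correlation across probes was 0.954 among control arrays, 0.948 among altered-diet arrays and 0.953 between the sets. The difference of within-set and between-set correlation was -0.00364, with an exact two-sided permutation p of 0.379 over all 3003 splits of the tumours into 10 and 5. No gene had all 10 altered-diet tumours above all 5 controls or below them (0% of 8378 genes in each direction). In 4 of the 8378 genes 9 of the 10 lay above the highest control, namely Pknox1, Tmcc3, Tomm70 and Trim21. In 9 of the 8378 genes 9 of the 10 lay below the lowest control, namely Bcl2l1, Dusp12, Limd2, Lrrc61, Mea1, Oaz2, Ppm1d, S100a1 and Stk16. These counts were not tested against chance, so they are a description and no finding about the genes. Tomm70, Trim21, Dusp12, Limd2, Lrrc61, Oaz2, S100a1 and Stk16 were named after their values were seen. The number of genes whose sets did not overlap was 13 of 8378 without control replicate 1. A smaller set of controls is easier to clear, so this number is no finding.

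**Figure D1:**
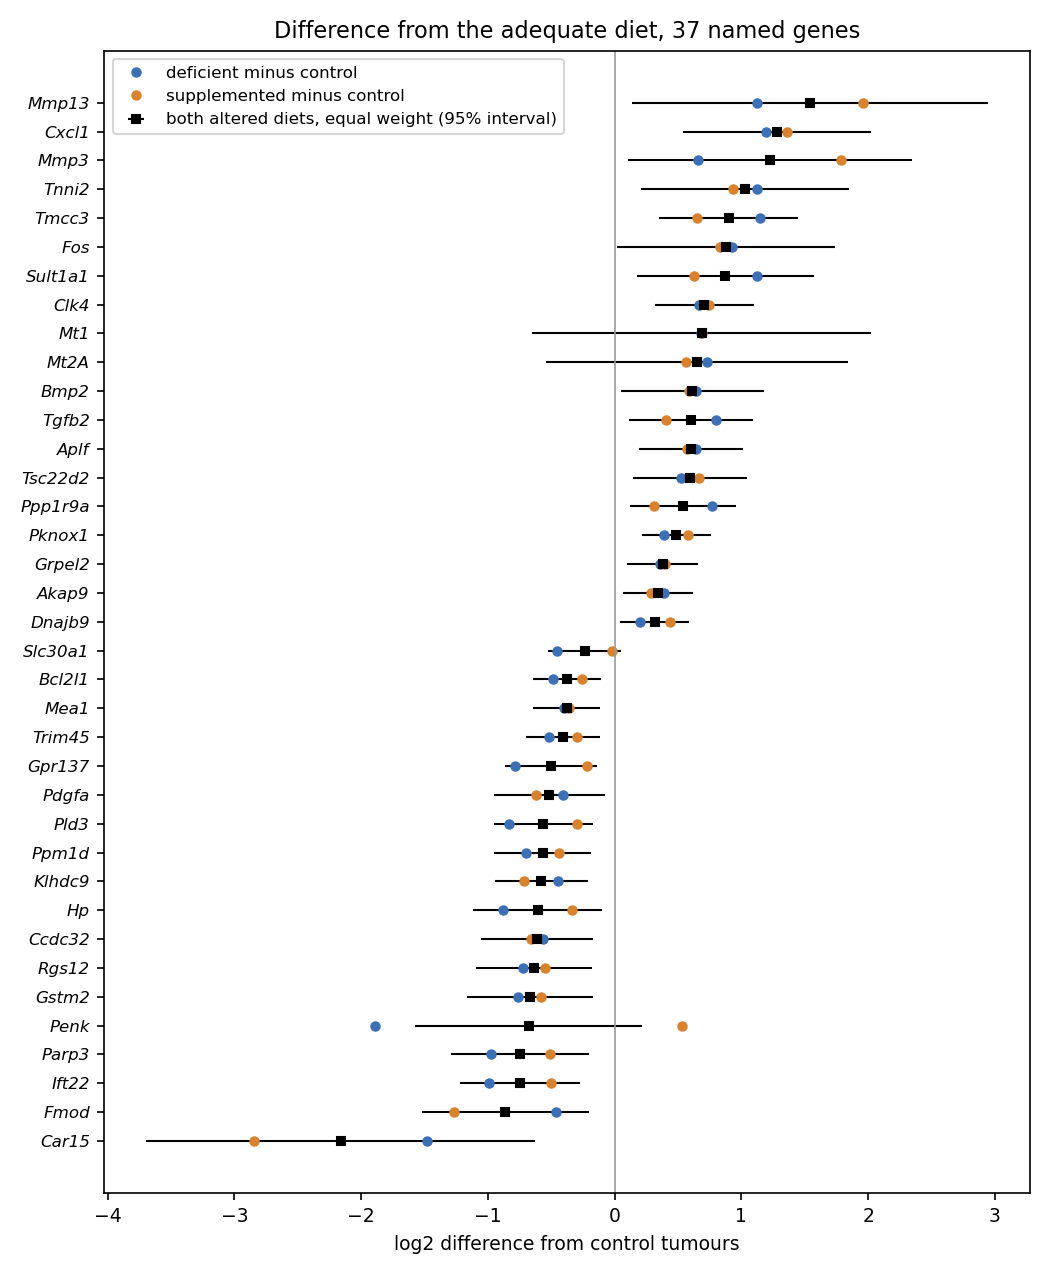
Log2 difference from the control tumours for 37 genes, one per line. Blue and orange points are the deficient and the supplemented diet, and black squares the mean of both diets with its 95% interval, unadjusted. The genes were chosen by rule, all but the fixed ones for small p, so intervals away from 0 are no finding. Sult1a1 was not well above background in any control. Penk is the gene whose diets lie on opposite sides, at -1.89 and 0.53.

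The metallothionein genes, the readout of zinc that cells are best known for, had a higher mean after both diets, with tumours of all diets intermingled. Mt1 and Mt2A encode the zinc-binding proteins themselves, and Slc30a1 the zinc exporter of the cell surface. Their promoters are shown because they carry the element through which Mtf1 acts. Each is the 250 bases before the gene's start in RefSeq (GRCr8), printed along the gene's own strand. Capitals mark the core of the metal response element, TGCACNC or TGCGCNC, searched on both strands. The windows lie at chr19:10832976-10833225 for Mt1 and chr19:10838709-10838958 for Mt2A, both on the minus strand, and at chr13:106021769-106022018 on the plus strand for Slc30a1.
Mt1: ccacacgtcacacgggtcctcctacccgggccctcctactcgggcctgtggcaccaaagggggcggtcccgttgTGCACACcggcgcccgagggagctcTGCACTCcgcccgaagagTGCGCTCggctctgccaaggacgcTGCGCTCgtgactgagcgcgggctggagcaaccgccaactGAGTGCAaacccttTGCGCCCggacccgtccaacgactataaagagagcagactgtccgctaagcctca
Mt2A: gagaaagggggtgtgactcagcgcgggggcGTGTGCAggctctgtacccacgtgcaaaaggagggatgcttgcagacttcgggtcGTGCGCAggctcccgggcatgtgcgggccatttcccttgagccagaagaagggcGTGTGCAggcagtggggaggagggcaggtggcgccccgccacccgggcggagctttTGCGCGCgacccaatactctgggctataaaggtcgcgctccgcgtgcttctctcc
Slc30a1: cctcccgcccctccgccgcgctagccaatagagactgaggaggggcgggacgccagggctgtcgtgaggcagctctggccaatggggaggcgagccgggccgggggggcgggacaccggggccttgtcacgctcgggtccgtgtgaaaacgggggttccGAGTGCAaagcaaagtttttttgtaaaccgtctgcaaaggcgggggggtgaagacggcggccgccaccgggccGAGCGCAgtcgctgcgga
The core was found 6 times in Mt1, 4 times in Mt2A and 2 times in Slc30a1, with no overlaps. By comparison, 20.6% of 33469 rat promoter windows of this length held it at least once. A match describes the letters only, and binding was not measured.

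Mt1 stood at 4.32, 2.80, 3.11, 4.65 and 6.33 in control replicates 1 to 5, at 4.80, 4.23, 6.27, 5.20 and 4.12 in the deficient tumours and at 4.30, 4.21, 3.29, 5.53 and 7.32 in the supplemented ones. The sets overlapped over most of their range, with the highest control below a single altered-diet tumour, supplemented replicate 5. The means were 4.24 ± 1.40 (SD, n = 5) in control, 4.92 ± 0.87 (n = 5) in deficient and 4.93 ± 1.55 (n = 5) in supplemented tumours, a difference of 0.69 with a 95% interval from -0.65 to 2.02. Mt2A differed by 0.65 (-0.55 to 1.84). Single tumours moved these values: without control replicate 2, 3 or 5 the difference of Mt1 was 0.33, 0.40 or 1.21, and without supplemented replicate 5 it was 0.39. For Mt2A the same omissions gave 0.38, 0.42, 1.07 and 0.41. Without the 3 dimmest arrays the differences were 0.30 for Mt1 and 0.35 for Mt2A, and with weights for the spread of each array 0.36 and 0.29.

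Slc30a1 did not share this pattern of means. It stood at -0.29, -0.12, 0.18, -0.06 and -0.19 in controls, at -0.31, -0.36, -0.98, -0.46 and -0.64 in deficient and at -0.05, -0.33, -0.03, -0.14 and -0.03 in supplemented tumours. The 5 deficient tumours lay below every control, and of the supplemented ones only replicate 2, at -0.33, did. The difference for both altered diets was -0.24 (-0.53 to 0.05), made up of -0.46 for deficient and -0.02 for supplemented tumours. Between the altered diets it was 0.44 (0.10 to 0.77), with a limma adjusted p of 0.674.

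Of 28 zinc transporter and metallothionein genes listed, 20 were measured by a tested probe, and 0 passed the test. Means were higher after altered diets for 9 and lower for 11, with a median of -0.01, close to the -0.02 of all genes and of either sign depending on the processing. The importer Slc39a8 differed by 0.40 (0.42 in deficient and 0.38 in supplemented tumours), its fellow zinc transporter Slc30a9 by 0.32 (0.28 and 0.35) and Slc30a4, which loads zinc into milk, by 0.29 (0.27 and 0.31). On the lower side was Slc39a4, an importer known from the intestine, at -0.35 (-0.24 and -0.46). The vesicular transporter Slc30a2 was well above background in 4 control, 0 deficient and 2 supplemented tumours, so no difference is given. Mtf1 had opposite values, 0.65 in deficient and -0.35 in supplemented tumours. The mean level of the list ran from -0.32 to 0.13 in control, from -0.26 to 0.08 in deficient and from -0.20 to 0.21 in supplemented tumours.

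**Figure D2:**
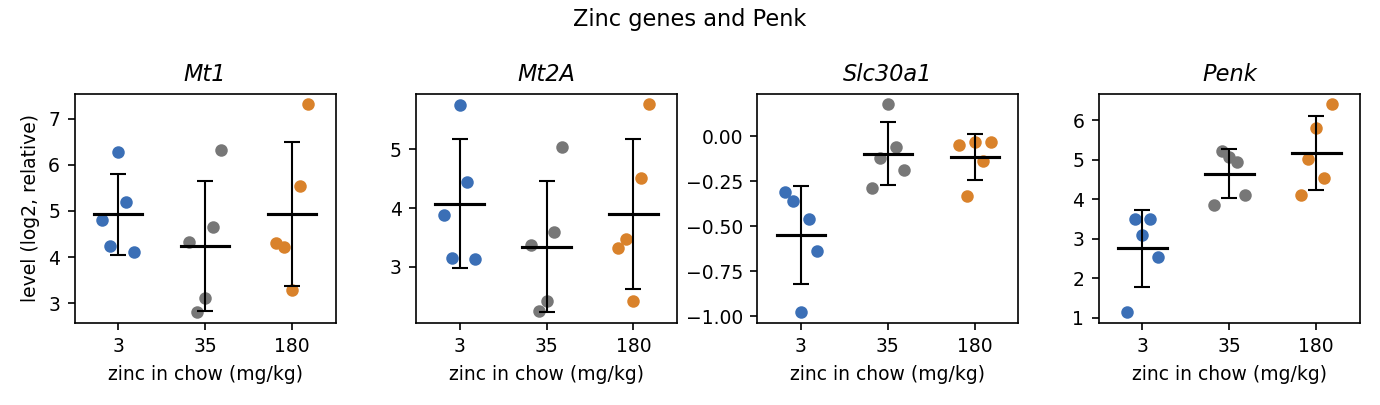
Levels of Mt1, Mt2A, Slc30a1 and Penk in each tumour (log2 signal minus the array's 75th percentile) by zinc in the chow. Points are tumours, thick bars are means and whiskers are SD, n = 5 per diet. Mt1 and Mt2A spread widely within every diet, while for Slc30a1 and Penk the deficient mean is the lowest.

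An inflammatory chemokine and matrix metalloproteinases were among the genes with a higher mean after both diets. Cxcl1, which encodes a chemokine that draws neutrophils, stood at 1.57, 0.41, -0.16, 1.90 and 0.95 in controls. It stood at 2.09, 1.61, 3.54, 1.73 and 1.67 in deficient and at 1.94, 2.07, 2.78, 2.59 and 2.11 in supplemented tumours. The 5 supplemented tumours and 2 deficient ones lay above the highest control, and the other 3 deficient tumours lay between the controls. The difference was 1.28 (95% interval 0.54 to 2.02), or 2.43-fold, with 1.19 for deficient and 1.36 for supplemented tumours. Within the 4 slides it ran from 0.44 to 2.77, and most slides held a single control. Cxcl1 also had one of the smallest p in these same tumours, so the shared sign is no support. The altered diets differed from each other by 0.17 (-0.69 to 1.03), which does not show that they act alike.

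Mmp13 and Mmp3 encode collagenase 3 and stromelysin 1, zinc-dependent proteases that break down collagen and other matrix proteins. Mmp13 stood at 0.14, 0.24, 0.05, 0.59 and -0.31 in controls, at -0.32, -0.29, 3.58, 3.26 and 0.09 in deficient and at 0.43, 3.74, 1.42, 2.89 and 2.02 in supplemented tumours. The controls were tightly grouped, 6 altered-diet tumours lay above all of them, and 3 deficient tumours and 1 supplemented tumour were at control levels or below. The difference was 1.54 (0.14 to 2.94), with values from -0.08 to 3.11 within the slides. Mmp3 stood at 1.00, 1.11, 0.74, 1.74 and -0.51 in controls, at 1.59, 0.12, 2.13, 2.49 and 1.04 in deficient and at 0.85, 3.84, 3.01, 3.94 and 1.39 in supplemented tumours. Here 5 altered-diet tumours exceeded the highest control, and deficient replicates 3 and 4 and supplemented replicates 2 to 4 were high for Mmp3 as well as for Mmp13. Mmp3 differed by 1.22 (0.10 to 2.34), by 0.66 in deficient and 1.79 in supplemented tumours. With such array weights the differences were 0.91 for Mmp13 and 0.65 for Mmp3.

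The promoters of these 3 genes are shown because each held the motif of a factor that is known to drive it, NF-kappa-B for Cxcl1 and AP-1, the dimer of Fos and Jun, for the proteases. They are again the 250 bases before the start in RefSeq (GRCr8), at chr14:17479322-17479571 on the minus strand for Cxcl1, and on the plus strand at chr8:12925031-12925280 for Mmp3 and chr8:12782579-12782828 for Mmp13. Capitals mark the NF-kappa-B letters in Cxcl1, GGG and TTTCC with any 2 bases between, and TGANTCA in the others, on either strand. TGANTCA reads alike on both strands, so each such match was counted once.
Cxcl1: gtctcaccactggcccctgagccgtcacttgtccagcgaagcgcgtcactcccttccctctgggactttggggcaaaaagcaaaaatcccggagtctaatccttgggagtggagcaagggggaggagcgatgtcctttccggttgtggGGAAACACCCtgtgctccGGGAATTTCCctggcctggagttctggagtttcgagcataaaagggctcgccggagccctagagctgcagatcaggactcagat
Mmp3: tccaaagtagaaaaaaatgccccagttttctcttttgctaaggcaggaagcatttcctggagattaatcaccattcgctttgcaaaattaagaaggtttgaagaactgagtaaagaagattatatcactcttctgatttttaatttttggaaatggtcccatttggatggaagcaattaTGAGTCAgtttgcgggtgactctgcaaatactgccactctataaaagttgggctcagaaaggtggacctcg
Mmp13: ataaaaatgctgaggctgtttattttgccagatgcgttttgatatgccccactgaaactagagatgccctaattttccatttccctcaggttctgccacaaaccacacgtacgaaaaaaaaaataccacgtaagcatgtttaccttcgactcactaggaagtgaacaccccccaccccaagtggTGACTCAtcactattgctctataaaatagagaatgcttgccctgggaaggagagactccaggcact
Cxcl1 held 2 matches, and the proteases held 1 each. Of all 33469 windows 1.3% held those NF-kappa-B letters and 6.34% held TGANTCA.

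Fos, the immediate early gene whose protein is part of AP-1, stood at 2.98, 1.57, 1.97, 2.16 and 1.19 in controls, at 4.76, 3.11, 1.87, 2.93 and 1.84 in deficient and at 3.27, 2.24, 3.18, 2.74 and 2.61 in supplemented tumours. In 4 altered-diet tumours it exceeded control replicate 1, and the other 6 lay within the control range. It differed by 0.88 (0.02 to 1.74), and by 0.46 without the 3 dimmest arrays. Among 16 measured of 28 immediate early genes, 11 had a higher and 5 a lower mean, with a median of 0.10. Jun, the partner of Fos, differed by 0.10, Myc by 0.40 and Egr2 by -0.57. None passed the test.

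As groups, the inflammatory and protease lists did not share the values of Cxcl1, Mmp3 and Mmp13. Of 23 measured of 41 chemokine and cytokine genes, 10 were higher and 13 lower, with a median of -0.09. Cxcl2, a close relative of Cxcl1, differed by 1.19 (1.54 in deficient and 0.84 in supplemented tumours), while the fibroblast chemokine Cxcl12 differed by -0.55 and the monocyte attractant Ccl2 by -0.31. Of 19 measured of 28 metalloproteinase and inhibitor genes, 10 were higher and 9 lower, with a median of 0.01 whose sign depended on the processing. The gelatinase gene Mmp2 differed by -0.48 and the inhibitor gene Timp1 by -0.21. The acute phase and innate defence list had 21 of 24 genes measured, 15 of them higher, with a median of 0.28 (0.57 in deficient and 0.09 in supplemented tumours). In it were Lbp, which binds bacterial lipopolysaccharide, at 0.97, the complement gene C4a at 0.81, and Hp, the haemoglobin-binding haptoglobin, on the lower side at -0.61 (-1.12 to -0.10). The acute phase median was 0.04 without control replicate 1 and 0.11 without deficient replicate 3. Of 13 neutrophil markers 3 were measured, namely S100a8 at 0.22 (0.66 in deficient and -0.21 in supplemented tumours), S100a9 at 0.23 (0.97 and -0.51) and Padi4 at -0.39 (-0.21 and -0.57). Macrophage markers, 14 of 18 measured, were lower for 13 with a median of -0.15 (0.08 with control replicate 5 left out). The part of neutrophils and macrophages in the values of Cxcl1, Mmp3 and Mmp13 was not tested.

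**Figure D3:**
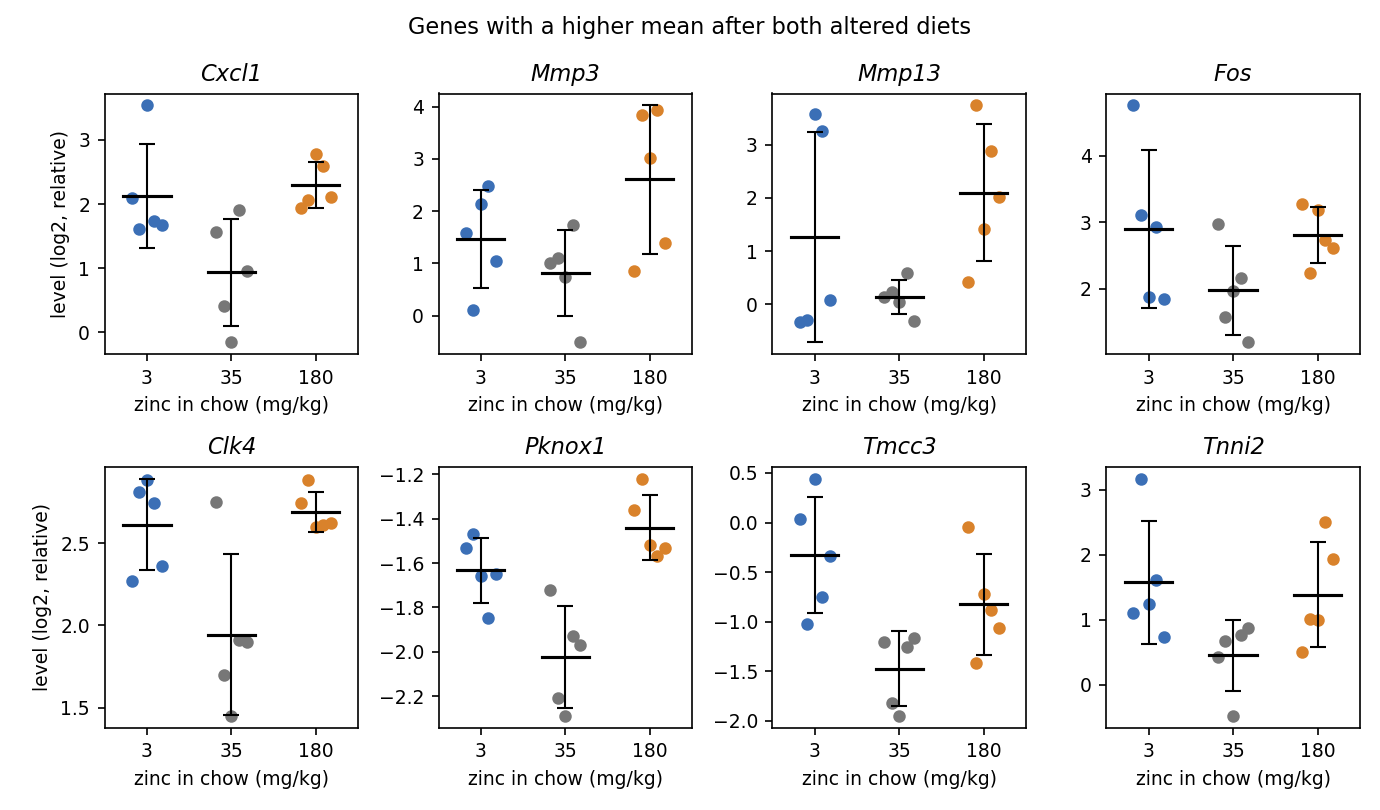
Levels in each tumour (log2 signal minus the array's 75th percentile) of 8 genes with a higher mean after both altered diets, by zinc in the chow. Points are tumours, thick bars means and whiskers SD, n = 5 per diet. The sets overlap in every panel: for Clk4 1 control tumour at 2.75 lies among the altered-diet tumours, and for Mmp13 4 altered-diet tumours lie at control levels.

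The smallest p of all genes with a higher mean belonged to Clk4, a kinase that phosphorylates the SR proteins of splicing. It stood at 2.75, 1.70, 1.45, 1.91 and 1.90 in controls, at 2.27, 2.81, 2.88, 2.74 and 2.36 in deficient and at 2.74, 2.88, 2.60, 2.61 and 2.62 in supplemented tumours. Every altered-diet tumour lay above controls 2 to 5, and 3 lay above control replicate 1. The difference was 0.71 (0.31 to 1.10), or 1.63-fold, with values of 0.67 and 0.75 for the deficient and supplemented diets, and from -0.24 to 1.25 within the slides. The negative value belongs to slide 1, which held control replicate 1. In the list of splicing kinases and SR proteins 24 of 36 genes were measured. Of these 15 were higher and 9 lower, with a median of 0.05, and of -0.02 without control replicate 2. The related kinase Clk1 differed by 0.30, Clk2 by 0.06 and Clk3 by 0.03.

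Pknox1, a homeodomain transcription factor that pairs with PBX proteins, was higher than every control in 9 of the 10 altered-diet tumours. It stood at -1.72, -2.21, -2.29, -1.93 and -1.97 in controls, at -1.53, -1.47, -1.66, -1.85 and -1.65 in deficient and at -1.36, -1.22, -1.52, -1.57 and -1.53 in supplemented tumours. Only deficient replicate 4 lay below a control tumour. The difference was 0.49 (0.21 to 0.76), and from 0.28 to 0.79 within the slides. Pknox1 was chosen for its small p in these tumours, so the shared sign is no support. Pknox1 was a dim gene, well above background in 3 control and 8 altered-diet tumours, and with normexp background correction it differed by 0.17. Tmcc3, which encodes a membrane protein of the endoplasmic reticulum, stood at -1.20, -1.82, -1.95, -1.25 and -1.16 in controls, at 0.04, -1.02, 0.44, -0.75 and -0.34 in deficient and at -0.05, -1.42, -0.72, -0.88 and -1.06 in supplemented tumours. Supplemented replicate 2 alone lay among the controls. Tmcc3 differed by 0.90 (0.35 to 1.44), more in deficient (1.15) than in supplemented tumours (0.65), though the altered diets' difference of -0.50 had an interval from -1.13 to 0.13. With normexp Tmcc3 differed by 0.28, and its second tested probe differed by 0.49.

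The other higher genes named by the smallest p were, in order, Aplf (0.60), Grpel2 (0.38), Tsc22d2 (0.60), Ppp1r9a (0.54), Tnni2 (1.03), Sult1a1, Tgfb2 (0.60) and Akap9 (0.34). Aplf takes part in the repair of DNA strand breaks, and it was above background in 15 of 15 tumours, with 6 altered-diet tumours above the highest control. Grpel2 is a mitochondrial co-chaperone, and Ppp1r9a, or neurabin, is an actin-binding scaffold. Akap9 anchors protein kinase A at the Golgi and the centrosome, and its other 3 tested probes differed by 0.12 to 0.63. Tgfb2 encodes transforming growth factor beta 2, was above background in 3 control and 8 altered-diet tumours, and differed by 0.07 with normexp. Sult1a1, a sulphotransferase that can activate metabolites of aromatic carcinogens, was not well above background in any control and was so in 6 altered-diet tumours. Sult1a1 thus entered the test only through altered-diet tumours, so its place here is no support for a difference. In 3 altered-diet tumours it lay above the highest control. An estimate meant as a lower bound was 1.35-fold higher after altered diets (limma adjusted p = 1). Altered-diet arrays where the gene was not well above background entered it with their signal. For this bound each control array was given the gene's signal or the array's lowest signal that counted as above background, whichever was higher.

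Tnni2, a troponin of fast skeletal muscle, stood at 0.43, 0.68, -0.48, 0.76 and 0.88 in controls, at 1.11, 3.17, 1.24, 1.62 and 0.74 in deficient and at 0.50, 1.02, 0.99, 2.50 and 1.93 in supplemented tumours. In 8 altered-diet tumours it lay above the highest control, furthest in deficient replicate 2 and supplemented replicate 4. It is a muscle marker, and the muscle list (7 of 17 measured) had 4 members higher and 3 lower, with a median of 0.08. The list's mean level ran from -1.24 to -0.10 in controls, from -1.10 to 1.07 in deficient and from -0.88 to 0.57 in supplemented tumours. The part of muscle tissue in the value of Tnni2 was not tested.

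The genes with a lower mean after both diets held a survival factor, a phosphatase and a repair enzyme, each with 8 or more of the 10 altered-diet tumours below the lowest control. Bcl2l1 encodes Bcl-x, whose long form protects cells from apoptosis. It stood at 2.56, 2.95, 2.89, 2.74 and 2.57 in controls, at 2.19, 2.47, 2.48, 2.09 and 2.04 in deficient and at 2.42, 2.55, 2.61, 2.36 and 2.47 in supplemented tumours. Supplemented replicate 3 alone reached the control range. The difference was -0.37 (-0.64 to -0.10), a fold of 1.30, with -0.49 for deficient and -0.26 for supplemented tumours and from -0.57 to -0.25 within the slides. These values are of the brightest probe, and the other 2 tested probes of Bcl2l1 differed by -0.07 and -0.24.

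Ppm1d encodes Wip1, a phosphatase of the DNA damage response. It stood at -1.63, -1.67, -1.59, -1.48 and -1.30 in controls, at -2.36, -1.94, -2.13, -2.15 and -2.59 in deficient and at -1.73, -1.79, -2.79, -1.95 and -1.60 in supplemented tumours. Supplemented replicate 5 alone lay within the control range. It differed by -0.57 (-0.95 to -0.18), from -0.71 to -0.42 within the slides. Ppm1d was well above background in 4 control and 4 altered-diet tumours, and with normexp it differed by -0.09.

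Mea1 and Parp3 were similarly placed. Mea1, a gene known from the testis, stood at 2.42, 2.69, 2.62, 2.56 and 2.56 in controls, at 2.19, 2.03, 2.26, 2.24 and 2.14 in deficient and at 2.16, 2.13, 2.38, 2.50 and 1.88 in supplemented tumours. Only supplemented replicate 4 lay above a control, and no altered-diet tumour reached the other 4 controls. It was bright, above background in 15 of 15 tumours, and differed by -0.38 (-0.64 to -0.12), from -0.55 to -0.24 within the slides. Parp3, an ADP-ribosyltransferase that acts in the repair of DNA breaks, differed by -0.74 (-1.29 to -0.20), with -0.98 in deficient and -0.51 in supplemented tumours. It was above background in 3 control and 6 altered-diet tumours, and it differed by -0.48 without the 3 dimmest arrays and by -0.13 with normexp.

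**Figure D4:**
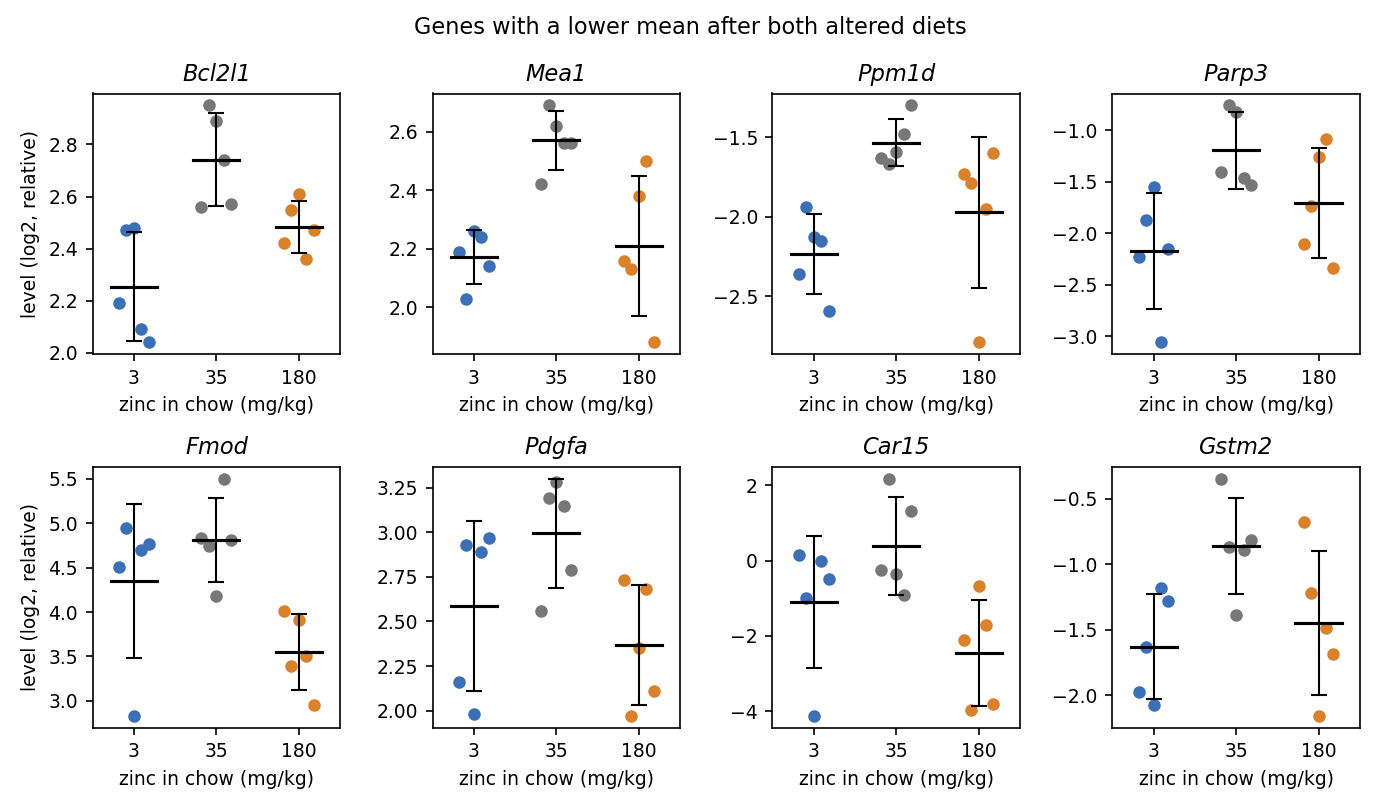
Levels in each tumour (log2 signal minus the array's 75th percentile) of 8 genes with a lower mean after both altered diets, by zinc in the chow. Points are tumours, thick bars means and whiskers SD, n = 5 per diet. Bcl2l1, Mea1 and Ppm1d each have a single altered-diet tumour within the control range, and Car15 spans from -4.13 to 2.17.

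Car15, a membrane-anchored carbonic anhydrase and so a zinc enzyme, varied widely between tumours. It stood at -0.26, 2.17, -0.35, -0.92 and 1.31 in controls, at 0.15, -0.99, -4.13, 0.00 and -0.50 in deficient and at -2.10, -3.98, -0.67, -1.71 and -3.81 in supplemented tumours. The deficient tumours other than replicate 3 lay within or near the control range, and 4 of the 5 supplemented ones lay below it. The difference was -2.16 (-3.69 to -0.63), with -1.48 in deficient and -2.84 in supplemented tumours. Car15 was above background in 5 control and 5 altered-diet tumours, so the lowest levels were at background and its size is uncertain, and with normexp it differed by -0.88.

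The remaining lower genes by the smallest p were Ift22 (-0.75), Klhdc9 (-0.58), Pld3 (-0.56), Trim45 (-0.41), Gpr137 (-0.50), Rgs12 (-0.64) and Ccdc32 (-0.61). Ift22 serves transport within cilia, Trim45 is a ubiquitin ligase and Rgs12 restrains G protein signalling. Pld3 is an endolysosomal nuclease of the phospholipase D family. Klhdc9 and Trim45 were above background in 15 of 15 tumours, and each had 7 altered-diet tumours below the lowest control. Rgs12 was well above background in 3 control and 2 altered-diet tumours, and Ccdc32 in 3 and 3. Ift22 was so in 4 and 4, and Gpr137 in 4 and 6, so the sizes for these dim genes are uncertain. With normexp Rgs12 differed by -0.04, Ccdc32 by -0.16 and Ift22 by -0.21. Over the alternatives other than the omission of 1 tumour, Gpr137 ran from -0.54 to -0.17.

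Genes of detoxification and growth signalling were named as members of lists. Gstm2, a glutathione transferase, differed by -0.67 (-1.17 to -0.17) with 6 altered-diet tumours below the lowest control, and by -0.20 with normexp. The antioxidant list held 28 measured of 33 genes, 11 higher and 17 lower, with a median of -0.05. Of the list of the Ah receptor and DMBA metabolism, 9 of 19 were measured, 4 higher and 5 lower. Its median was -0.12 (-0.01 with control replicate 3 left out). Cyp1b1, the oxidase that activates DMBA in the breast, differed by -0.17 (-0.13 and -0.22). It was well above background in only 2 control, 1 deficient and 2 supplemented tumours, so this value is uncertain. The growth factor list held 28 measured of 40 genes, 12 higher and 16 lower, with a median of -0.11. In it Pdgfa, the platelet-derived growth factor A chain, differed by -0.51 (-0.95 to -0.08) and Bmp2, a bone morphogenetic protein above background in 1 control and 5 altered-diet tumours, by 0.61 (0.05 to 1.18). Bmp2 differed by 0.39 with array weights and by 0.09 with normexp.

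Cell cycle and mitosis genes were nearly all lower in mean. Of 45 genes 33 were measured, and 32 had a lower mean after altered diets, with a median of -0.38 against -0.02 over all genes. The medians of the single diets were -0.27 for deficient and -0.48 for supplemented tumours. No member passed the test, and 0 had an unadjusted p under 0.05. Ccnb1, the cyclin that starts mitosis, stood at -0.51, -0.85, 0.85, -0.56 and -0.96 in controls, at -1.09, -0.13, -0.89, -1.23 and -1.27 in deficient and at -2.86, -0.99, -1.61, -0.10 and -1.62 in supplemented tumours. Control replicate 3 was the highest and supplemented replicate 1 the lowest, and 3 altered-diet tumours lay within the control range. Kif20a, a kinesin of cytokinesis, stood at 1.17, 1.06, 2.45, 1.34 and 0.84 in controls, at 0.55, 1.63, -0.16, 1.49 and 0.64 in deficient and at -0.57, 0.69, 0.02, 1.73 and 0.59 in supplemented tumours. Control replicate 3 was again the highest. Other members were Birc5 (survivin, -0.75), the mitotic kinase gene Plk1 (-0.69) and Cdk1 (-0.60), while Ccnd1, the cyclin of the G1 phase, was the exception at 0.06. The median was -0.21 without control replicate 3 and -0.13 with normexp. Genes of such a list vary together from tumour to tumour, so the number of members that were lower is not a number of independent observations. The mean level of the list ran from -0.36 to 1.06 in controls, from -1.01 to 0.52 in deficient and from -0.82 to 0.69 in supplemented tumours, which overlap. Mki67 was not analysed here.

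Matrix genes were also mostly lower in mean. Fmod encodes fibromodulin, a proteoglycan that binds collagen fibrils. It stood at 4.83, 4.74, 4.18, 5.50 and 4.81 in controls, at 4.51, 4.95, 2.83, 4.70 and 4.77 in deficient and at 4.01, 3.39, 3.91, 3.50 and 2.95 in supplemented tumours. The 5 supplemented tumours lay below every control, whereas of the deficient ones only replicate 3 did. The difference for both diets was -0.86 (-1.52 to -0.20), made up of -0.46 and -1.26. Of 41 genes of collagens and matrix 24 were measured, 4 higher and 20 lower, with a median of -0.30 (-0.36 for deficient and -0.26 for supplemented tumours). Col1a1, the main chain of type I collagen, differed by -0.53, and Loxl2, which crosslinks collagen, by -0.67. The matrix median was -0.06 without control replicate 4 and -0.52 without control replicate 1. Fibroblast markers, which include some of these genes, were lower for 8 of 10 measured, with a median of -0.23 that ran from -0.67 without control replicate 1 to -0.09 without control replicate 2 or 4. The higher fibroblast markers were Pdgfra (0.36) and Dcn (0.25). Basal and myoepithelial genes (16 of 21 measured) were lower for 14, with a median of -0.28, among them the keratins Krt5 (-0.34) and Krt14 (-0.28). The higher members were the keratin Krt17 (0.02) and Myh11 (0.26). Myh11 had opposite values in the single diets, 0.96 in deficient and -0.43 in supplemented tumours. The part of the cell makeup in these values was not tested.

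**Figure D5:**
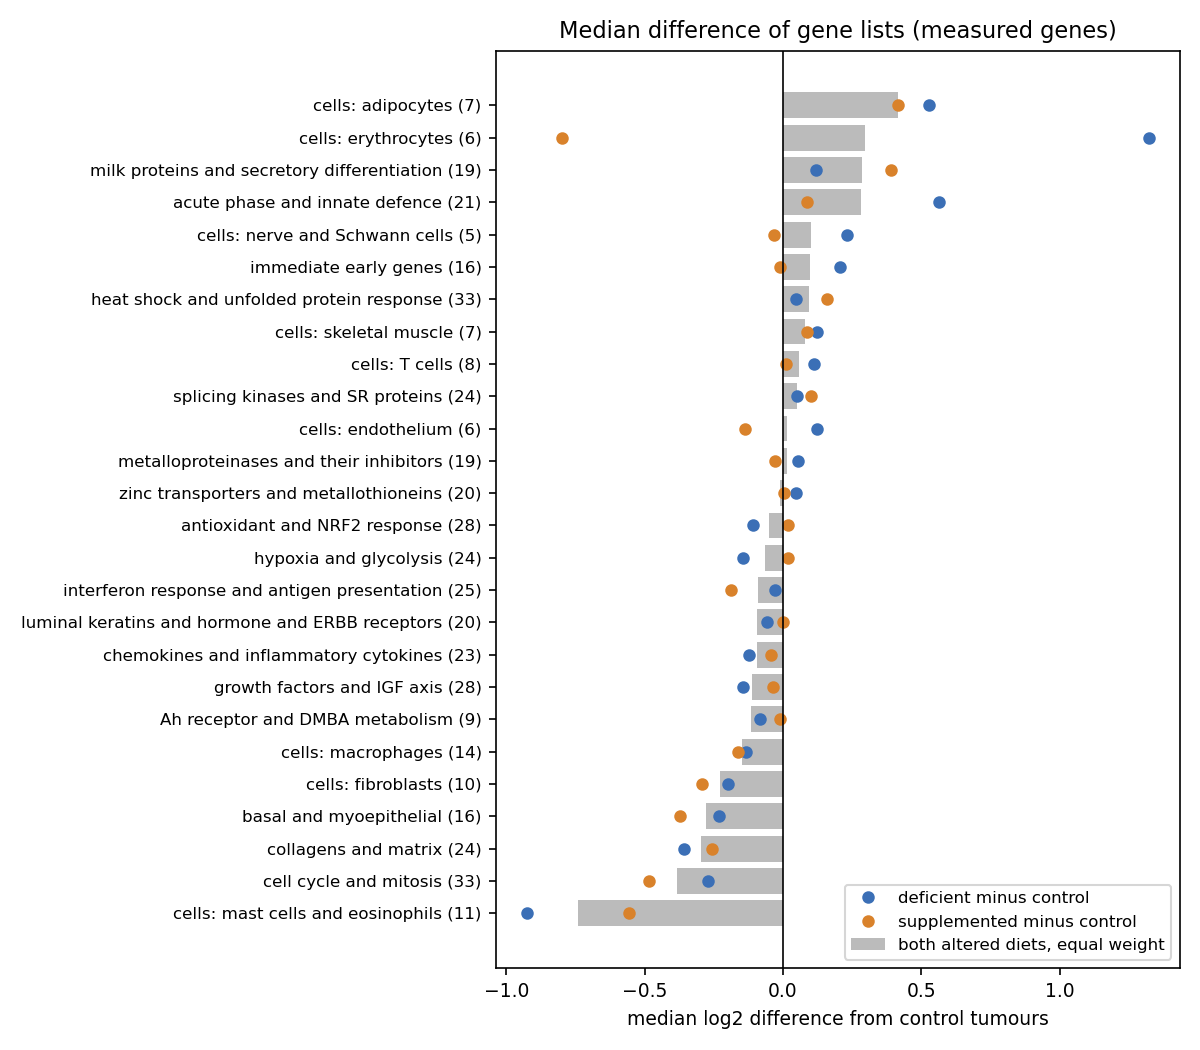
Median log2 difference from the control tumours over the measured genes of the gene lists with 5 or more of them, except for a list not reported here (number in brackets). Grey bars are the mean of both altered diets, and blue and orange points the deficient and the supplemented diet. Cell cycle genes lie at -0.38, and erythrocyte genes have opposite values in the single diets, 1.32 and -0.80.

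Several milk protein genes had a higher mean, with large differences between single tumours. Of 23 genes of milk and secretory differentiation 19 were measured, 13 higher and 6 lower, with a median of 0.29 (0.12 for deficient and 0.39 for supplemented tumours) and 0 passing the test. Glycam1, which encodes a mucin-like milk protein, stood at -0.61, -3.31, -2.31, 1.73 and -0.43 in controls, at 6.16, 0.19, -2.59, -2.04 and 6.05 in deficient and at 5.22, -1.54, 5.41, 0.57 and 2.34 in supplemented tumours. In 5 altered-diet tumours it lay above the highest control, and in 4 of these it lay above 5. It was well above background in 4 control, 3 deficient and 5 supplemented tumours. Its difference of 2.96 (2.54 and 3.38) thus rested on part of the tumours of either diet. Wap, whey acidic protein, differed by 1.12, the caseins Csn1s1 and Csn3 by 0.94 and 0.82, and Elf5, the transcription factor of alveolar cells, by 0.85. Not all caseins shared this. Csn2 differed by 0.17, with -0.20 in deficient and 0.53 in supplemented tumours. Csn1s2a differed by 1.10 (0.06 and 2.14) and Csn1s2b by 0.29 (0.54 and 0.03). Csn1s2a was well above background in 1 control, 2 deficient and 4 supplemented tumours, and Csn1s2b in 2, 2 and 1. Wap was well above background in 2 control, 4 deficient and 4 supplemented tumours. On the lower side were Fabp3, a fatty acid binding protein, at -0.60, the lipid droplet gene Cidea at -0.48 and Fasn, fatty acid synthase, at -0.34. The list's median was 0.54 without control replicate 2 and 0.18 with normexp.

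Markers of other cell types that a mammary tumour could hold were described in the same way. Mast cell and eosinophil markers (11 of 18 measured) were lower for 7, with a median of -0.74, in deficient tumours -0.92 and in supplemented ones -0.56. Tpsb2, a mast cell tryptase, stood at 1.67, 1.01, 0.28, 0.06 and 1.78 in controls, at -2.04, 1.17, -3.57, -0.52 and 0.75 in deficient and at 1.19, 0.06, -0.36, -3.51 and 0.94 in supplemented tumours. Deficient replicates 1 and 3 and supplemented replicate 4 were far below the rest, and 5 altered-diet tumours lay within the control range or at its lower edge. The chymase genes Cma1 (-1.42) and Mcpt1 (-1.62) and Hdc, the histamine-forming enzyme (-1.17), lay on the same side. Tpsb2 and Mcpt1 were each well above background in 5 control, 3 deficient and 4 supplemented tumours. Hdc was so in 5, 2 and 4, and Cma1 in 5, 4 and 5, so the sizes of these differences are uncertain. Kit, the stem cell factor receptor that luminal cells also make, differed by 0.65. The list members Mcpt9 (0.28), Tpsab1 (0.09) and Mcpt8 (0.02) also had a higher mean. Mcpt9 and Mcpt8 had opposite values in the single diets, -0.53 and -0.64 in deficient and 1.10 and 0.67 in supplemented tumours. The median was -0.37 without deficient replicate 3, -0.44 without control replicate 1, -0.33 without supplemented replicate 4, -0.20 with normexp, -0.21 with the deposited values, -0.06 with no filter on dim probes and -0.05 with array weights. Over the probes above background on all 15 arrays it had the opposite sign, 0.05.

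Adipocyte markers (7 of 19 measured) were higher for 6, with a median of 0.41. The only lower one was Dgat2, at -0.45 (-0.39 in deficient and -0.51 in supplemented tumours), well above background in 5 tumours of each diet. Adipoq, the fat hormone adiponectin, stood at -3.21, -3.34, -2.06, -2.90 and -3.33 in controls, at 1.25, -2.20, -3.14, -3.01 and -1.56 in deficient and at -3.19, -1.47, -3.53, -2.65 and 0.55 in supplemented tumours. Deficient replicate 1 and supplemented replicate 5 were high. Adipoq was well above background in 1 control, 3 deficient and 2 supplemented tumours. Retn, resistin, was likewise highest in deficient replicate 1 (3.26) and supplemented replicate 5 (1.48). The mean level of the list ran from -0.44 to -0.05 in controls, from -0.61 to 1.94 in deficient and from -0.54 to 1.54 in supplemented tumours. Over the probes above background on all 15 arrays the median was -0.04.

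Erythrocyte genes (6 of 13 measured) and Penk show how a mean over both altered diets can hide opposite values. All 6 erythrocyte genes had a higher mean, with a median of 0.30, but the medians of the single diets were 1.32 for deficient and -0.80 for supplemented tumours. The median was -0.04 without control replicate 3 and 0.03 without deficient replicate 1. Hbb-b1, a beta globin, stood at 5.01, 5.60, 3.50, 4.96 and 5.92 in controls, at 8.20, 5.88, 5.71, 6.24 and 5.97 in deficient and at 4.43, 4.24, 4.80, 3.53 and 4.57 in supplemented tumours. The deficient and the supplemented tumours did not overlap, and the controls lay across both. Penk, which encodes the precursor of enkephalin peptides, differed by -0.68 (-1.57 to 0.22) over both diets, with -1.89 in deficient and 0.53 in supplemented tumours. The contrast between supplemented and deficient tumours, which is independent of the mean of both diets at equal group sizes, gave 0 of 21011 probes passing in limma (lowest adjusted p = 0.615), with 1482 at an unadjusted p under 0.05.

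T cell, endothelial and nerve markers had medians near 0. They were 0.06 for T cells (8 of 20 measured), 0.02 for endothelium (6 of 14) and 0.10 for nerve and Schwann cells (5 of 14), and their signs changed when single tumours were left out. One B cell marker of 14 was measured, Pou2af1, which differed by 0.41.

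The heat shock and unfolded protein response list was higher for 25 of 33 measured of 37 genes, with small values. Its median was 0.09, with 0.05 for deficient and 0.16 for supplemented tumours. Dnajb9, a chaperone of the endoplasmic reticulum, stood at -0.82, -0.90, -0.93, -0.56 and -1.01 in controls, at -0.88, -0.70, -0.62, -0.50 and -0.52 in deficient and at -0.42, -0.43, -0.50, -0.08 and -0.62 in supplemented tumours. In 6 altered-diet tumours it lay above the highest control. It differed by 0.32 (0.04 to 0.59), and by 0.13 with normexp. Hspa8, the constitutive heat shock cognate, differed by 0.22, and Hspb1, a small heat shock protein, by -0.37. The median was 0.04 without control replicate 2 and 0.15 without control replicate 4. The remaining lists lay near the median of all genes: interferon response and antigen presentation at -0.09 (9 higher and 16 lower), luminal keratins and hormone and ERBB receptors at -0.09 (7 and 13), and hypoxia and glycolysis at -0.07 (11 and 13).

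Probes without a gene name here gave the smallest p. The probe A_44_P277176 stood at 0.74, -0.07, 0.97, 0.28 and -0.25 in controls, at -2.69, -2.71, -3.93, -3.13 and -2.55 in deficient and at -2.73, -0.17, -2.70, -3.44 and -0.18 in supplemented tumours. In 8 altered-diet tumours it lay well below every control, and supplemented replicates 2 and 5 were at the lower edge of the controls. It differed by -2.76 (-3.79 to -1.73), or 6.75-fold lower, with a limma adjusted p of 0.748, and it was well above background in 5 control and 4 altered-diet tumours. Of all tested probes, A_44_P225378 was the only one whose sets did not overlap. This probe was well above background in 4 control and 4 altered-diet tumours, so most of its altered-diet values were not well measured. Its altered-diet tumours reached up to -1.76 and its controls down to -1.75, a difference of -1.04 with a limma adjusted p of 1.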

How the data were processed

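RNA of 15 tumours was hybridised to single-colour (Cy3) rat 4x44K arrays, 5 per diet. The deposited scanner files give linear intensity per spot, with background already subtracted by Feature Extraction (version 11.5.1.1, per the file headers; version 15.5, per the submitters' processing notes). The authors deposited a second table of log2 values for 30002 of 41012 probes, whose array medians were 7.09 to 7.10 and whose columns correlated with the log2 median spot signal at 0.984 to 1.000. How it was normalized is not given in the sources used here, and it served as an alternative.

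Levels are log2 of the processed signal minus the 75th percentile of the array over non-control probes. Outlier spots were left out, and spots of 1 probe were averaged. Probes well above background on at least 5 arrays were kept (more than 50% of a probe's spots), with 40 missing values. Between 13854 and 24009 of 43379 spots per array passed that mark, and 0 were saturated. Precision is limited by the number of arrays. Accessions without versions named 17502 probes (42.7%) through a RefSeq table of GRCr8. A gene is shown by its probe with the highest mean level. Promoters came from the same release, and all 6 genes looked up were found.

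Limma 3.58.1 in R 4.3.3 fitted 3 diet means to all arrays (lmFit and eBayes, 12 residual degrees of freedom). The contrast was the mean of both altered diets minus control, two-sided, with Benjamini-Hochberg adjustment over 21011 probes and a threshold of 0.05. The fit was tested on simulated data (20 data sets, 9.75 false calls per set). Named genes were, among those with both altered diets on the same side of control, the 12 with the smallest p in each direction; up to 3 members of each list of 5 or more measured genes at an unadjusted p under 0.05; up to 10 genes whose sets do not overlap; and Mt1, Mt2A, Slc30a1, Cxcl1, Mmp3, Penk and Mki67. Symbols that are only clone or locus numbers were left out, and other list members, the lists' examples and the unnamed probes were chosen after their values were seen. One list of genes is not reported here. The comparison, the gene lists and this rule were chosen with earlier results of these data known. Alternatives were background correction with normexp (offset 50, on median spot signals because the files hold no mean signals) and quantile normalization, quantile normalization alone, the deposited values, 2 filters, 2 sets in place of 3 diet means, slide and replicate number as blocks, array weights, a covariate for array brightness, and omission of the 3 dimmest arrays or of each tumour in turn.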

Additional observations from a re-analysis of the deposited data

Results flagged for a closer look

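In 111 sets of 5 tumours (37 genes in 3 diets), 4 held a tumour far from the others by Dixon's test at the 95% level, where chance gives about 5% of sets. In deficient replicate 3, Cxcl1 stood at 3.54, with the nearest other deficient tumour at 2.09. The same tumour had Car15 at -4.13, with the nearest at -0.99, and Fmod at 2.83, with the nearest at 4.51. In supplemented replicate 3, Ppm1d stood at -2.79, with the nearest at -1.95.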

How the results depend on the processing

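Under 27 alternatives, 15 of which leave out 1 tumour, 0 probes passed for both altered diets against control, with a lowest adjusted p of 0.122 in limma. All 37 named genes kept their direction in all 985 values computed, and 0 reached an adjusted p under 0.05. Most of these genes were chosen for a small p in the same tumours, so a kept direction was nearly given and is no support. Of the 37 genes, 14 had no value over probes above background on all 15 arrays. In their deviations from the diet means, 6 of 15 same-numbered pairs of tumours correlated above 0.1 (from -0.28 to 0.224). Tumours of different numbers were not compared, so whether replicate numbers pair the tumours was not tested. With the replicate block limma called 0 probes (lowest adjusted p = 1). Of 8378 genes, the number whose sets do not overlap was 1 with normexp, 1 with quantile normalization, 6 without the 3 dimmest arrays and 0 to 13 with 1 tumour left out. Smaller sets are easier to separate. Between supplemented and deficient tumours 1 probe passed with array weights (adjusted p = 0.0163) and 0 to 1 with 1 tumour left out (0.0263 without supplemented replicate 1). The median of all genes was 0.0239 without a filter on dim probes. List medians near 0 changed sign. For zinc genes the median was 0.0170 with normexp, 0.0169 with the deposited values, 0.0108 with quantile normalization, 0.000817 with no filter, 0.0365 on 15 arrays, 0.0191 with array weights and 0.00271 without the 3 dimmest arrays. For metalloproteinases it was -0.0206 with normexp, -0.0194 with the deposited values, -0.0493 on 15 arrays, -0.0922 with array weights, -0.0337 with brightness and -0.0662 without the 3 dimmest arrays. Without a filter it was 0.0157 for chemokines and 0.0333 for the Ah receptor list. On 15 arrays it was -0.0355 for adipocytes and 0.0527 for mast cells. For endothelium it was -0.00260 with slide as a block and -0.0106 with brightness, for muscle -0.0245 with brightness and for immediate early genes -0.0112 with array weights. With 1 tumour left out the medians ran from -0.118 to 0.0208 for antioxidant genes, -0.193 to 0.272 for T cells, -0.0443 to 0.108 for endothelium, -0.0356 to 0.597 for erythrocytes, -0.292 to 0.0772 for macrophages, -0.00695 to 0.179 for nerve, -0.165 to 0.257 for muscle, -0.224 to 0.0504 for chemokines, -0.152 to 0.0206 for hypoxia, -0.113 to 0.00394 for luminal genes, -0.0987 to 0.0779 for metalloproteinases, -0.0194 to 0.0945 for splicing and -0.0449 to 0.0872 for zinc genes. The causes were not tested. The 3 dimmest arrays had 75th percentiles of 50.7, 52.4 and 55.9, and dim genes were measured on a part of the arrays.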
